A study of Macaca mulatta with 24 samples.

Results

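Jejunum taken 7 days after 6.7 Gy total body irradiation (TBI) was compared with un-irradiated jejunum of rhesus macaques (Macaca mulatta). The comparison used 8 of the 24 arrays of the jejunum series. They were the 4 arrays labelled 6.7 Gy, day 7 and the 4 arrays labelled control, each from 1 animal without pooling. The irradiated animals were young-adult males that received a single uniform dose from a cobalt-60 gamma source, and the control animals were males of the same kind that were sham-irradiated and carry a day 4 label. RNA came from whole jejunal wall, so every value mixes epithelium, immune cells, vessels, nerve and muscle. Each sample was hybridised to a 1-colour Agilent rhesus array. The level of a probe is its log2 processed signal minus the 75th percentile of its own array. An irradiated-minus-control difference of 1 on this scale is a 2-fold difference. A probe was called when the limma test gave an adjusted p under 0.05 and the groups differed by at least 2-fold.

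The lining of the small intestine is renewed from dividing cells at the base of the crypts, and their daughters move up the villus as absorptive and secretory cells. Ionizing radiation breaks DNA, which stabilizes the transcription factor p53 and arrests or kills dividing crypt cells, and the crypts that survive regrow afterwards. Lymphocytes of the gut wall and red cell precursors in the bone marrow are also known to be sensitive to radiation.

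The test took in 28171 of 43603 probes (64.6%), those that all arrays of some group in the series measured well above background. The share of probes well above background ranged from 51.3% to 87.7% over the control arrays and from 62.6% to 85.7% over the day 7 arrays. Control and day 7 arrays with the same replicate number shared a slide, and all controls were at position 1 and all day 7 arrays at position 3, so position and group cannot be told apart. The slide of replicate 4 stood apart. Its lowest signals above background were 83 and 52.5 units against 7.03 to 10.9 on the other 6 arrays, so dim probes are less well measured on it. Enterocyte genes that define the labelled tissue, such as FABP1, RBP2, VIL1 and LCT, were well above background on 8 of 8 arrays.

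A small set of genes passed the test on day 7. HBB and 1 of the HBA2 probes, for hemoglobin, fell most, together with lipid-droplet, retinol-carrier and cell-cycle regulator genes, while MT2A, MT1E, CPS1 and SULT1B1 rose. In all, 18 probes were called (0.0639% of those tested), of which 6 rose (0.0213%) and 12 fell (0.0426%). The 18 probes represent 12 named genes, and 2 of the probes that rose have no gene symbol. Of the 18, 13 were above background on all 8 arrays. Both probes without a symbol were above background on 3 of 4 control and 4 of 4 day 7 arrays, so they may have entered the test through the group in which they were brighter. The difference of A_01_P002062 went from 2.66 to 1.49 with normexp background correction, and that of A_01_P001346 from 1.38 to 0.67, or to 0.29 with all small values raised to a common floor. For all 18 the groups did not overlap, as was also the case for 7.15% of the probes tested, and the difference had 1 sign on 4 of 4 slides. With slide as a fixed block, which leaves 3 residual degrees of freedom, 1 of the 18 (HBB) remained called, 0.00355% of the probes, with none higher (0%). With slide as a random block 89 probes (0.316%) were called, 55 higher (0.195%) and 34 lower (0.121%), including all 18, and without 1 array in turn 2 to 8 probes were called.

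HBB, the beta chain of hemoglobin, was far lower on day 7. On 1 of its probes (A_01_P1671806) the level was 1.54, 2.14, 3.23 and 3.78 in control replicates 1 to 4, and -6.47, -4.72, -4.28 and -6.51 in day 7 replicates 1 to 4. The lowest control array was far above the highest day 7 array. The fitted difference was -8.16 ± 0.63 (SE) on the log2 scale with an adjusted p of 0.00464, but the probe was well above background on 2 of the 4 day 7 arrays only, and with normexp background correction the difference was -5.86. The other HBB probe (A_01_P1726606) was bright enough to count as present in 4 of 4 control arrays but in no day 7 array. Against the lowest measurable signal of those arrays it was at least 50.8-fold lower (adjusted p = 0.00464). This probe was the 1 that passed with slide as a fixed block. Control was the only group in which all arrays measured it well above background, so it entered the test through the group in which it was brighter. With a common floor, the highest of the lowest signals above background on these arrays, to which all smaller values were raised, its difference was -3.27 and its adjusted p 0.0617.

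The alpha chain gave a mixed picture. The HBA2 probe A_01_P1670786 had levels of 1.09, 1.36, 2.42 and 3.13 in control and -1.95, -1.81, -1.92 and -2.19 on day 7, a difference of -3.97 ± 0.40 (adjusted p = 0.0257). Its other, brighter probe had a level of 7.58 ± 0.35 (SD, n = 4) in control and 7.25 ± 0.34 on day 7, and the groups overlapped (adjusted p = 0.673). The probes of this gene therefore disagreed. Of the 16 genes of the erythroid list, 5 were tested. Besides HBB and HBA2 they were BPGM, HBQ1 and AHSP, none of which passed the test. The defining genes ALAS2 and KLF1 were too dim to be tested. The summed signal of the 5 genes, relative to each array's 75th percentile, was 150.2 to 259.3 in control and 118.3 to 207.2 on day 7. Most of this sum comes from the brighter HBA2 probe. The mean log2 level of the 5 genes, which HBB moves most, was 1.315 to 1.793 in control and -0.562 to 0.097 on day 7. In RNA from whole tissue, fewer cells of a type and less RNA per cell cannot be told apart.

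CIDEC and RBP4 fell as well, although the list of fat absorption and chylomicron genes had none called, 2 of 13 lower at an unadjusted p under 0.05 (background 5.57%) and a median of -0.14. CIDEC encodes a protein of the lipid droplet surface. Its called probe A_01_P1830951 had levels of 1.18, 0.84, 0.24 and 1.08 in control and -1.47, -1.69, -1.11 and -1.32 on day 7, a 4.69-fold decrease (log2 difference -2.23 ± 0.23, adjusted p = 0.0257). The other 3 CIDEC probes had differences of -1.94, -1.91 and -1.68, of which the second passed the test. RBP4, which carries retinol in the blood and is listed in the files as LOC701270, had levels of 1.25, 0.38, 0.86 and 1.34 in control against -1.02, -1.05, -1.02 and -1.48 on day 7 (A_01_P1680827). The difference was -2.10 ± 0.23 (adjusted p = 0.0287). Another RBP4 probe passed at -1.99, and the brightest was at -2.17 with an adjusted p of 0.0527. The 4 day 7 arrays thus lay below the 4 controls on every probe of both genes. SERPINA2, a relative of the alpha-1-antitrypsin gene, was at 0.31, 0.85, 1.78 and 2.24 in control and at -1.92, -1.57, -1.79 and -2.19 on day 7, 8.95-fold lower (adjusted p = 0.0440).

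The remaining falls were in a cell-cycle regulator, a nuclear body protein and a cytoskeletal linker. RGCC (regulator of cell cycle, listed as C13orf15) had levels of -0.86, -1.09, -1.08 and -0.86 in control and -2.05, -2.31, -2.16 and -2.29 on day 7, a difference of -1.23 ± 0.14 (adjusted p = 0.0287). A second RGCC probe fell by 1.56 (adjusted p = 0.0341), and the third, at -0.88, did not pass (adjusted p = 0.202). SP140, a nuclear body protein of leukocytes, was at -2.83 ± 0.76 in control and -5.47 ± 0.26 on day 7 (adjusted p = 0.0490), above background on 2 of 4 day 7 arrays. Its difference of -2.65 was -0.95 with normexp background correction (adjusted p = 0.138) and -0.58 with all values raised to a common floor (adjusted p = 0.541). Its brighter probe had a difference of -0.52 that did not pass (adjusted p = 0.361). MSN encodes moesin, which links actin to the cell membrane and is abundant in leukocytes and endothelium. Its levels were -1.47, -1.49, -1.87 and -1.51 in control and -2.58, -2.60, -2.78 and -2.70 on day 7, 2.12-fold lower (adjusted p = 0.0494).

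Among the genes that rose, CPS1 makes carbamoyl phosphate, the entry step of citrulline and urea synthesis, and in the gut is an enterocyte gene. Its level was 2.96, 3.01, 2.48 and 2.40 in control and 4.19, 4.25, 4.30 and 4.53 on day 7, a 3.04-fold increase (log2 difference 1.60 ± 0.18, adjusted p = 0.0311). The second CPS1 probe had a difference of 1.52 with an adjusted p of 0.0905. SULT1B1, a sulfotransferase for phenols and thyroid hormone, was at -0.70, -1.01, -0.95 and -0.78 in control. On day 7 it was at 0.52, 0.31, 0.35 and 0.32, which is 2.35-fold higher (adjusted p = 0.0287). The SD over 4 arrays was 0.14 in control and 0.10 on day 7. The levels of 12 called genes are plotted array by array, with lines joining the arrays of 1 slide.

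**Figure D1:**
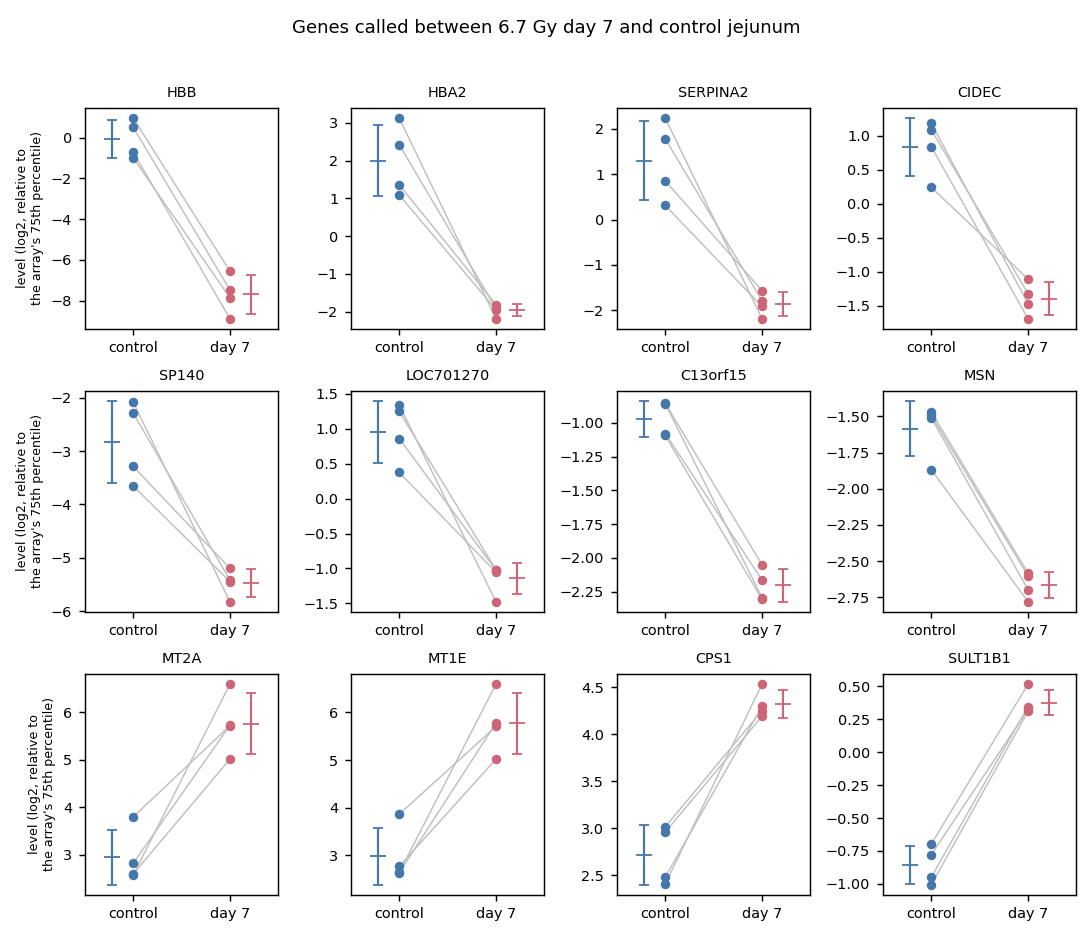
Level of 1 called probe for each of 12 genes (y axis: log2 signal relative to the array's 75th percentile; the y range differs between panels) in control and 6.7 Gy day 7 jejunum. Points are arrays, grey lines join arrays that shared a slide, and bars show the mean and SD of 4 arrays; no panel has overlapping groups, and all 4 lines of a panel run the same way. LOC701270 is RBP4, C13orf15 is RGCC, and HBB is the probe A_01_P1726606, which was not well above background on any day 7 array.

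MT2A and MT1E rose on day 7. They are metallothioneins, small proteins that bind zinc and copper and are induced by metals, glucocorticoids and oxidative stress. MT2A levels were 2.57, 2.82, 3.79 and 2.59 in control and 6.59, 5.72, 5.71 and 5.01 on day 7, a 7.03-fold increase (adjusted p = 0.0490). One of the MT1E probes rose 6.94-fold (adjusted p = 0.0494). Of the 11 genes of the family list, 5 were tested. The 4 with an unadjusted p under 0.05 were MT2A, MT1E, MT1X (log2 difference 2.79 ± 0.42, adjusted p = 0.0589) and MT4 (2.62 ± 0.41, adjusted p = 0.0636), and MT3 was at -0.16. Over the list the median difference was 2.62, beside -0.01 over 11903 genes with 1 probe each, of which 5.63% were higher at that unadjusted p. All 4 were called with slide as a random block, where 0.269% of genes were called higher, and none with slide as a fixed block. The sequences of this family are alike, so the probes may share signal and the 4 genes are not 4 separate measurements.

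Genes of cell division had higher means on day 7, although none of them passed the test after adjustment. The list of G2 and mitosis genes holds 32, of which 25 were tested. The 25 had a higher mean on day 7, with a median difference of 0.99, and 21 had an unadjusted p under 0.05 where the background is 5.63%. In 17 of the 25 the groups did not overlap (background 4.23%), and 18 were higher on 4 of 4 slides (background 11.3%). AURKA, a kinase of the mitotic spindle, had levels of 0.13, -0.11, -0.06 and -0.13 in control and 0.81, 1.26, 1.30 and 1.62 on day 7. Its difference was 1.29 ± 0.18 (adjusted p = 0.0527). CENPE, the kinetochore motor, was at -1.74 ± 0.13 in control and -0.63 ± 0.25 on day 7 (difference 1.11, adjusted p = 0.0527). PTTG1 (securin) and PLK1, a mitotic kinase, had differences of 0.97 and 1.06 (adjusted p = 0.0801 for both). With slide as a random block AURKA, CENPE and PLK1 were called, and without slide 4 the count at an unadjusted p under 0.05 was 19 of 25. ASPM, CENPA, KIF20A, KIF23 and PRC1 were above background on 3 of 4 control arrays and 4 of 4 day 7 arrays, so they may have entered the test through the group in which they were brighter. Over the 20 members above background on all 8 arrays the count was 17, with a median of 0.99. The smallest differences of brightest probes, picked out after the values were seen, were those of WEE1 (0.18) and BIRC5 (0.24).

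DNA synthesis genes showed a smaller difference. The replication list holds 29 genes, and 19 were tested. Their median difference was 0.53, 12 were higher at an unadjusted p under 0.05 (background 5.63%), 6 had groups that did not overlap (background 4.23%), and none was called. TYMS, which makes thymidylate, was at 0.36, 0.43, 0.59 and -0.04 in control and 1.02, 1.44, 2.15 and 2.16 on day 7 (difference 1.36 ± 0.28, adjusted p = 0.120). The other 3 TYMS probes had differences of 1.29, 1.33 and 1.54, and none was called. The thymidine kinase TK1, the maintenance-methylation factor UHRF1 and the sliding clamp PCNA had differences of 0.81, 0.80 and 0.72, with adjusted p from 0.142 to 0.202. Replicate 1 was the lowest of the 4 day 7 arrays for TYMS, TK1, UHRF1 and PCNA, and also for AURKA, CENPE, PTTG1 and PLK1. RRM2, a subunit of ribonucleotide reductase, went the other way at -0.40, with overlapping groups, and is named here after its value was seen. This count depended on single arrays: it was 5 without slide 4, 7 without control replicate 2, 3 or 4 or day 7 replicate 2, and 6 without day 7 replicate 3 or 4. Of 15 DNA repair genes tested, 2 were higher at an unadjusted p under 0.05 (background 5.63%), with a median of 0.29.

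Some p53 targets had higher levels than control, although none was called. Of 30 genes, 21 were tested. Of these, 9 were higher at an unadjusted p under 0.05 (background 5.63%), 7 lay above control without overlap (background 4.23%) and the median difference was 0.36. That median was 0.21 with normexp correction or without control replicate 3, and 0.17 with a common floor. Over the 18 members above background on all 8 arrays, 8 were higher at that p and the median was 0.27. The other members may have entered the test through a group in which they were brighter. EDA2R, a member of the tumor necrosis factor receptor superfamily, had levels of -3.02, -2.84, -2.51 and -3.04 in control and -0.29, -1.59, -0.38 and -0.18 on day 7. It was 4.73-fold higher with an adjusted p of 0.0527, just outside the limit. DDB2, a nucleotide excision repair factor, had the same adjusted p with a difference of 1.32 ± 0.19. GDF15, a stress cytokine, was at 0.44, -0.49, 0.37 and 0.59 in control and 1.50, 1.46, 2.38 and 2.87 on day 7 (difference 1.83 ± 0.36, adjusted p = 0.113). ZMAT3, an RNA-binding p53 target, differed by 1.39 (adjusted p = 0.113) and was dim, above background on 3 of 4 control arrays. It was 0.68 with normexp correction and 0.19 with a common floor (adjusted p = 0.742). EDA2R, DDB2 and GDF15 were called with slide as a random block. The p53 targets MDM2, XPC and GADD45A, chosen for mention after their values were seen, had differences of 0.00, -0.02 and 0.06 on their brightest probes. A second, dimmer MDM2 probe was at -3.44 ± 0.17 in control and -2.58 ± 0.08 on day 7, with groups that did not overlap (difference 0.86, adjusted p = 0.0730), so the probes of MDM2 disagreed. The cell-cycle and p53 genes are plotted by array.

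**Figure D2:**
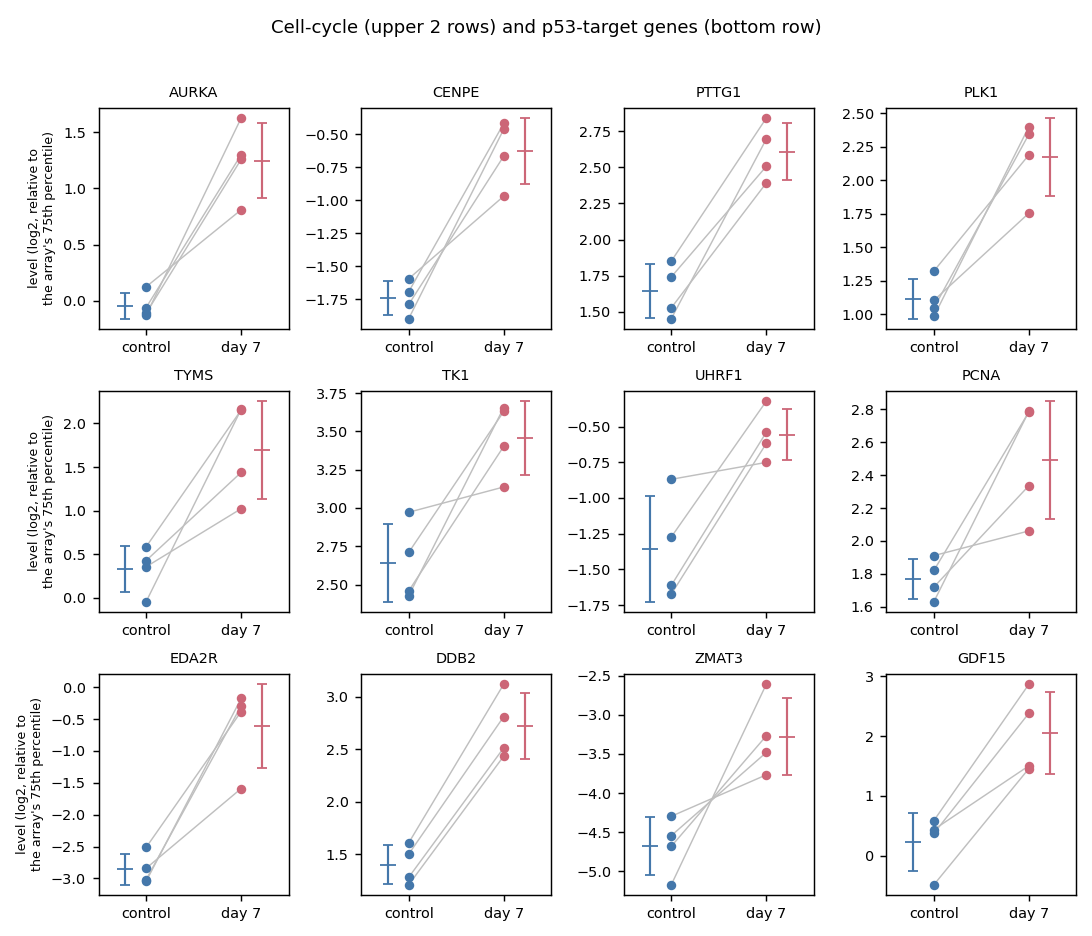
Level of 8 cell-cycle genes (upper rows) and 4 p53 targets (bottom row) in control and 6.7 Gy day 7 jejunum (y axis: log2 signal relative to the array's 75th percentile; the y range differs between panels). Points are arrays, grey lines join arrays of 1 slide, and bars show the mean and SD of 4 arrays; no panel has overlapping groups, and none of the 12 genes passed the test after adjustment.

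Crypt genes were higher at the unadjusted level in part. Of 7 crypt base and stem cell genes tested, 3 were higher at an unadjusted p under 0.05 (background 5.63%). OLFM4, a secreted glycoprotein of crypt base cells, was at -1.80, -3.33, -2.69 and -3.19 in control and -1.72, -0.38, -0.57 and -0.02 on day 7, 4.23-fold higher (adjusted p = 0.120). Replicate 1 of each group came closest to the other group. The progenitor factor SOX9 had a difference of 0.62 and RGMB one of 0.47, with adjusted p of 0.407 and 0.401. A dimmer SOX9 probe was at -0.14, opposite in sign. The stem cell receptor LGR5, chosen after its values were seen, was at -2.94 ± 0.18 in control and -3.04 ± 0.11 on day 7. Of 20 Wnt, Notch and crypt regulators tested, 3 were higher at an unadjusted p under 0.05 (background 5.63%), among them the Wnt-responsive transcription factors LEF1 (0.82) and SP5 (0.89, or 0.59 without slide 4).

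Some brush border genes had lower levels on day 7. Of 13 brush border genes tested, 5 were lower at an unadjusted p under 0.05 (background 5.57%), 3 did not overlap control (background 3.55%) and none was called. TREH, which cleaves trehalose, had levels of 4.61, 4.59, 4.26 and 4.06 in control and 3.43, 3.51, 3.46 and 2.62 on day 7 (difference -1.13 ± 0.23, adjusted p = 0.122). CDHR2, a cadherin that joins microvilli, was at 2.39 ± 0.19 in control and 1.53 ± 0.27 on day 7 (adjusted p = 0.120). The aminopeptidase ANPEP and the microvillar cadherin CDHR5 had differences of -0.78 and -0.61, with adjusted p of 0.196 and 0.323. The neutral endopeptidase MME, the remaining member with an unadjusted p under 0.05, was at -0.63. LCT (lactase) was at -0.16 and the peptidase DPP4 at 0.06, both named after their values were seen, and the list median was -0.16. That median was 0.05 without day 7 replicate 4, -0.40 without control replicate 1 and -0.06 without slide 4. Of the 7 absorptive enterocyte markers tested, 6 had a lower mean and 1, ANPEP, had an unadjusted p under 0.05 (background 5.57% lower). Of 13 sugar, amino acid and peptide transporters tested, 2 were higher (background 5.63%) and none lower at an unadjusted p under 0.05, 8 had a higher mean, and the median was 0.08. SLC1A1, a glutamate transporter, was at 0.08, 0.30, 0.31 and -1.63 in control and 2.70, 1.62, 2.41 and 1.97 on day 7 (5.32-fold higher, adjusted p = 0.0943). SLC6A20, a proline transporter, had a difference of 1.51 with overlapping groups, was above background on 3 of 4 control arrays, and was at 0.42 with a common floor. Among the drug-metabolizing enzymes, SULT1E1, the estrogen sulfotransferase, was 3.57-fold higher (adjusted p = 0.102).

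Antimicrobial and redox genes were mixed. Of 10 antimicrobial and lipocalin genes tested, 3 were higher (background 5.63%) and 1 was lower (background 5.57%) at an unadjusted p under 0.05. Their median difference was 0.50 and the lowest was -1.01. REG1A, a secreted lectin of injured gut epithelium, had levels of 6.03, 5.05, 5.78 and 5.12 in control and 6.97, 7.27, 6.83 and 6.75 on day 7 (2.76-fold higher, adjusted p = 0.0817). LCN15 and the protease inhibitor SLPI had differences of 2.05 and 1.30 (adjusted p = 0.145 and 0.153), and LCN15 was above background on 3 of 4 control arrays, with a difference of 1.34 under a common floor. In the same list DEFB4A, a beta-defensin, was at -0.44, and LCN2 was at 0.29 on its brighter probe and 2.03 on the dimmer one (adjusted p = 0.331, overlapping groups). Of 17 NRF2 and redox genes tested, 4 were higher (background 5.63%) and 1 was lower (background 5.57%) at an unadjusted p under 0.05. GPX2, the epithelial glutathione peroxidase, was at 1.77 ± 0.33 in control and 3.16 ± 0.30 on day 7, 2.62-fold higher (adjusted p = 0.0622), and NQO1, a quinone reductase, was 2.11-fold higher (adjusted p = 0.237). HMOX1, which degrades heme, had a difference of -0.73.

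**Figure D3:**
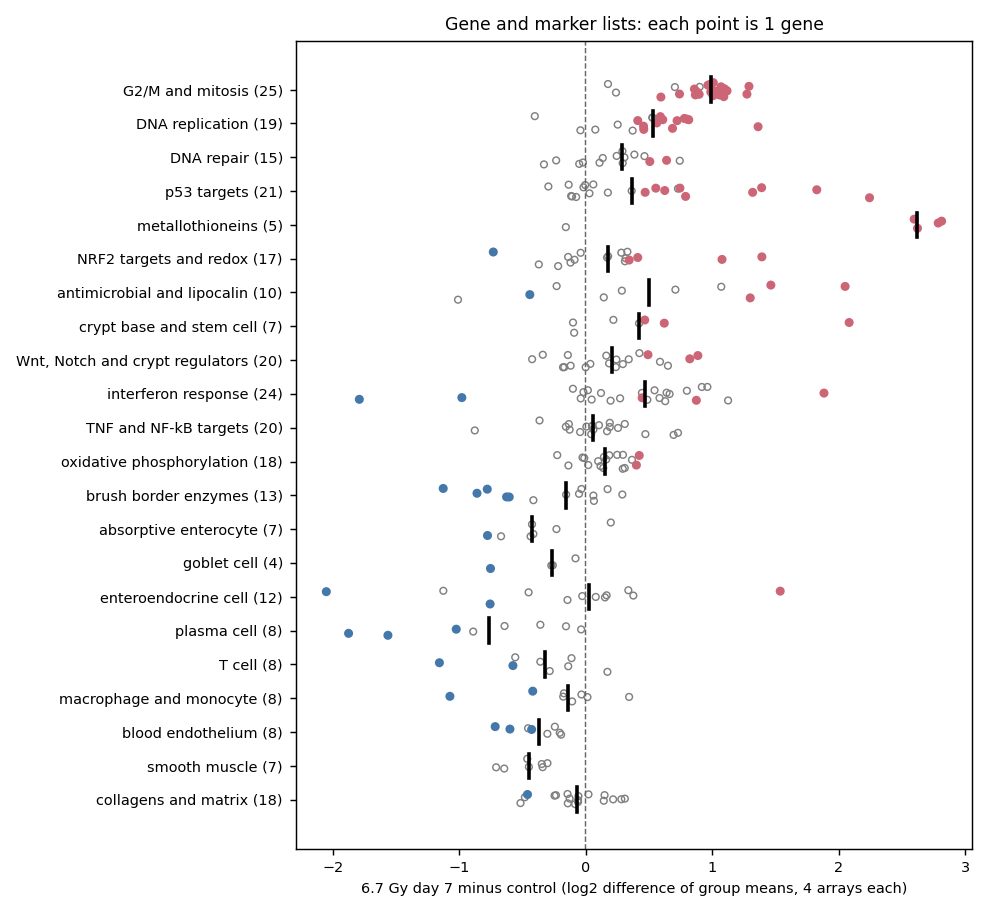
Log2 difference of group means, 6.7 Gy day 7 minus control (4 arrays each), for every tested gene of 22 gene and marker lists; the number tested is in brackets. Filled points have an unadjusted p under 0.05 (red higher, blue lower), open points do not, black bars are list medians and the dashed line is the median of all 11903 genes (-0.01). The G2 and mitosis list (median 0.99) and the metallothioneins (median 2.62) lie to the right, and the plasma cell markers (median -0.77) lie to the left.

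Markers of antibody-secreting cells had lower means on day 7, and none was called. All 8 plasma cell markers tested had a lower mean, with a median difference of -0.77, and 3 had an unadjusted p under 0.05 (background 5.57% lower). With a common floor the median was -0.49, and of the 6 markers above background on all 8 arrays 2 were lower at that p. MZB1, which assists antibody assembly, had levels of 1.97, 1.14, 1.46 and 2.67 in control and -0.17, -0.09, 0.06 and -0.06 on day 7, a difference of -1.88 ± 0.30 (adjusted p = 0.0688). It was called with slide as a random block, where 0.151% of genes were called lower. DERL3, of the degradation machinery of the endoplasmic reticulum, and TNFRSF17, the BCMA receptor of plasma cells, had differences of -1.02 and -1.56 (adjusted p = 0.185 and 0.242). TNFRSF17 was above background on 3 of 4 control and 2 of 4 day 7 arrays, and its difference was -0.62 with a common floor. IRF4, a plasma cell transcription factor above background on 3 of 4 arrays of each group, was at -0.64, and at -0.05 with a common floor. Without control replicate 1, or without day 7 replicate 2, 5 of the 8 had an unadjusted p under 0.05. The summed signal of the 8 genes was 27.1 to 58.9 in control and 25.6 to 33.7 on day 7, overlapping between groups.

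Among other leukocyte genes, CSF1R, the growth factor receptor of macrophages, was lower on 4 of 4 slides. Its levels were 1.29, 0.92, 0.87 and 0.92 in control and 0.10, -0.24, -0.17 and 0.01 on day 7, 2.10-fold lower with an adjusted p of 0.0527. Of the 8 macrophage and monocyte markers tested, AIF1 (difference -0.42, or -0.26 with normexp background correction) was the other with an unadjusted p under 0.05 (background 5.57% lower). CD74, the chaperone of MHC class II, was at 4.86, 4.77, 5.03 and 4.87 in control and 4.20, 4.14, 3.86 and 4.13 on day 7 (difference -0.80 ± 0.14, adjusted p = 0.0896). TAP1, a peptide transporter of the class I pathway, had a difference of 0.72 in the other direction. CCR7, which guides lymphocytes and dendritic cells to lymph nodes, was dim, above background on 3 of 4 arrays of each group. Its difference of -1.16 (adjusted p = 0.138) shrank to -0.38 with normexp background correction and to -0.18 with all values raised to a common floor, and CD27 of T cells was at -0.58. The T cell list as a whole had a median of -0.32, with 2 of 8 lower at an unadjusted p under 0.05 (background 5.57%), and the cytotoxic list had a median of 0.07, with none of 7.

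MSN stood in a list of 12 actin and cortical linker genes tested, of which it was the 1 called, where 0.0426% of all probes were called lower. Of the 12, 4 were lower at an unadjusted p under 0.05 (background 5.57%) and 3 lay below control without overlap (background 3.55%). EZR (ezrin), the relative of moesin in epithelial microvilli, was at 2.00, 2.26, 2.03 and 1.87 in control and 1.31, 1.38, 1.27 and 1.33 on day 7, a difference of -0.72 ± 0.13 (adjusted p = 0.102). CORO1A, an actin regulator of leukocytes, and TMSB4X, an actin monomer binder, had differences of -0.51 and -0.39. Blood endothelium markers had a median of -0.37, and 3 of 8 (ESAM at -0.60, KDR at -0.72 and TEK at -0.43) were lower at an unadjusted p under 0.05 (background 5.57%), with groups that overlapped on their brightest probes. With normexp background correction the differences of ESAM and TEK were -0.38 and -0.19. ERG, above background on 3 of 4 control arrays, was at -0.46 and had no difference left with a common floor. The smooth muscle markers, which report on how much of the muscle layer a sample holds, had a median of -0.45 with none of 7 at that p. Their summed signal was 331.2 to 463.4 in control and 174.1 to 463.2 on day 7. The part of tissue composition in the differences above was not tested.

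Hormone genes of the enteroendocrine cells did not move together. GIP, the incretin of the upper small intestine, had levels of 2.58, 1.56, 1.44 and 2.40 in control and 0.28, 0.67, -1.26 and 0.08 on day 7, 4.14-fold lower (adjusted p = 0.123). GCG, which encodes the glucagon-like peptides, was at -2.13, -0.36, -0.43 and -1.49 in control and 0.55, -0.17, 0.59 and 0.76 on day 7, 2.90-fold higher (adjusted p = 0.198). The groups did not overlap for either gene, in opposite directions. Of the 12 genes tested, 1 lay above control (background 4.23%) and 1 below it (background 3.55%) without overlap. At an unadjusted p under 0.05, 1 was higher (background 5.63%) and 2 were lower (background 5.57%). TPH1, for serotonin synthesis, and the prohormone convertase PCSK1 had differences of -0.76 and -0.45. The median over the 12 hormone and granule genes tested was 0.03.

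**Figure D4:**
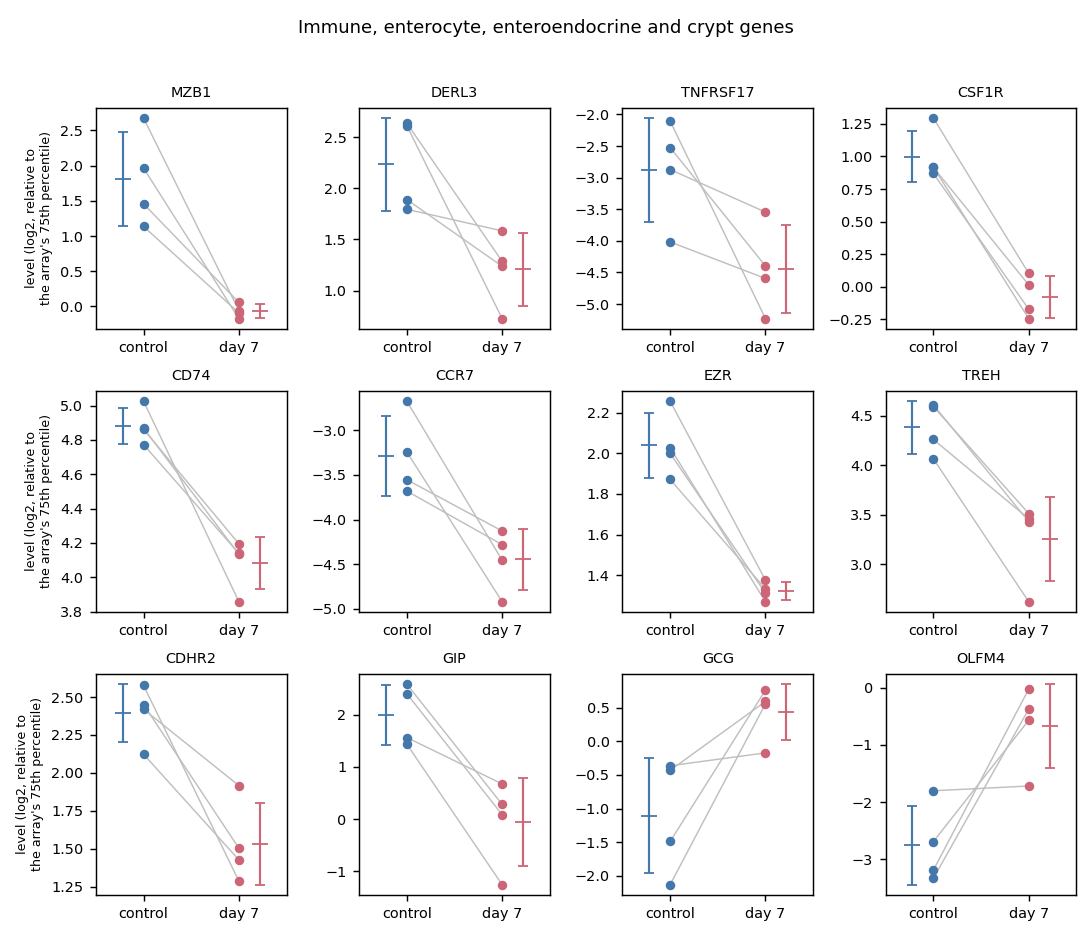
Level of 12 immune, epithelial and hormone genes in control and 6.7 Gy day 7 jejunum (y axis: log2 signal relative to the array's 75th percentile; the y range differs between panels). Points are arrays, grey lines join arrays of 1 slide, and bars show the mean and SD of 4 arrays; GCG and OLFM4 are higher on day 7, the other 10 have a lower mean, and only TNFRSF17 has overlapping groups.

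No gene of the inflammatory lists was called. Of 20 TNF and NF-kB targets tested, none had an unadjusted p under 0.05, and the median was 0.06 beside -0.01 over all genes. CXCL8, a neutrophil attractant, had a difference of 0.05 ± 0.62 on its brightest probe. This probe was above background on 3 of 4 arrays of each group. Its difference ranged from -0.64 without slide 4 to 0.71 without day 7 replicate 1. Of 24 interferon response genes tested, 19 had a higher mean and the median was 0.47. At an unadjusted p under 0.05, 3 were higher (background 5.63%) and 2 were lower (background 5.57%). On the brightest probes the groups overlapped for all 24, where 4.23% of genes lay above control and 3.55% below it without overlap. CXCL10, above background on 3 of 4 control arrays, had a difference of 1.88, which was 1.15 without slide 4. ISG15 had a difference of -0.98 and CXCL11 one of -1.79, which was -0.93 with a common floor. A dimmer CXCL11 probe was at 1.05, and it was not well above background in any control array. Of 15 CC chemokines tested, 13 had a higher mean, the median was 0.69, and 2 were higher (background 5.63%) and none lower at an unadjusted p under 0.05. The monocyte attractants CCL8 and CCL3 had differences of 1.43 (adjusted p = 0.0896) and 0.56. CCL8 was above background on 3 of 4 control arrays and was at 0.91 with normexp background correction. MMP12, the macrophage elastase, was at -4.85 ± 0.54 in control and -2.75 ± 1.45 on day 7. It was above background on 3 of 4 control arrays, and its difference of 2.11 was 0.86 with a common floor. The gelatinase MMP2 was at 1.81 ± 0.11 and 2.25 ± 0.26. GALC and ITM2A had differences of 0.30 and -0.27 that did not pass. ADA, adenosine deaminase, varied widely between arrays. Its levels were 6.44, 3.66, 3.99 and 5.51 in control and 0.72, 3.67, 0.57 and 1.25 on day 7, so day 7 replicate 2 lay within the control range.

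Set against jejunum taken 4 days after the same dose, day 7 differed at 436 probes (1.55% of those tested), 224 higher (0.795%) and 212 lower (0.753%), in a model of all 24 arrays. Between settings the count ran from 24 to 928, and the split moved too. It was 158 higher and 296 lower with the 75th percentile of probes well above background on all 24 arrays. With the 2 groups alone it was 95 higher and 54 lower. The comparisons with day 4 and with control use the same day 7 arrays, so they are not independent. The day 4 arrays were at slide positions 1 and 2 and the day 7 arrays at position 3, so position and day cannot be told apart. Day 4 replicates 1 and 2 were also scanned on a different day. On replicate 1 the lowest signal above background was 130 units, against 9.03 to 52.5 on the day 7 arrays. CPS1 and SULT1B1 were higher on day 7 than on day 4, by 1.31 ± 0.19 (adjusted p = 0.00148) and 1.57 ± 0.26 (adjusted p = 0.00343). The day 4 levels were 3.01 ± 0.23 for CPS1 and -1.20 ± 0.36 for SULT1B1. MSN was lower on day 7 by 0.97 (adjusted p = 0.0045), which is just under 2-fold. Of the 21 p53 targets, 5 were called lower than on day 4, where 0.924% of all genes were. GDF15 fell by 2.18 ± 0.33 (adjusted p = 0.00216), EDA2R by 1.44 ± 0.29 (adjusted p = 0.0104) and DDB2 by 1.39 ± 0.19 (adjusted p = 0.00148). None of the 25 G2 and mitosis genes was called against day 4, and their median difference was 0.54. MT2A did not pass either, at -0.12 ± 0.52. GPX2 and LCN15 were lower than on day 4, and NQO1 and GCG higher. The HBB probes and the called HBA2 probe were already low on day 4, while the brighter HBA2 probe (7.13 ± 0.33) overlapped control. HBB A_01_P1671806 was at -4.25 ± 0.85 then, and its further difference of -1.25 did not pass (adjusted p = 0.343).

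The higher dose of 7.4 Gy gave no call against 6.7 Gy on day 7. No probe passed in either direction (0%) in limma, nor by the methods' t-test after adjustment, the smallest adjusted p in limma was 0.589, and 207 probes had an unadjusted p under 0.05 with a 2-fold difference. SULT1B1 had the widest gap among the 12 called genes with a symbol, at -0.72 ± 0.71 at 7.4 Gy against 0.37 ± 0.10 at 6.7 Gy. For HBB (A_01_P1671806), CPS1 and MT2A the 7.4 Gy group was at -5.94 ± 1.03, 4.05 ± 0.16 and 6.58 ± 0.39. These values do not show that the doses act alike. The list levels in all groups of the series are plotted per array.

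**Figure D5:**
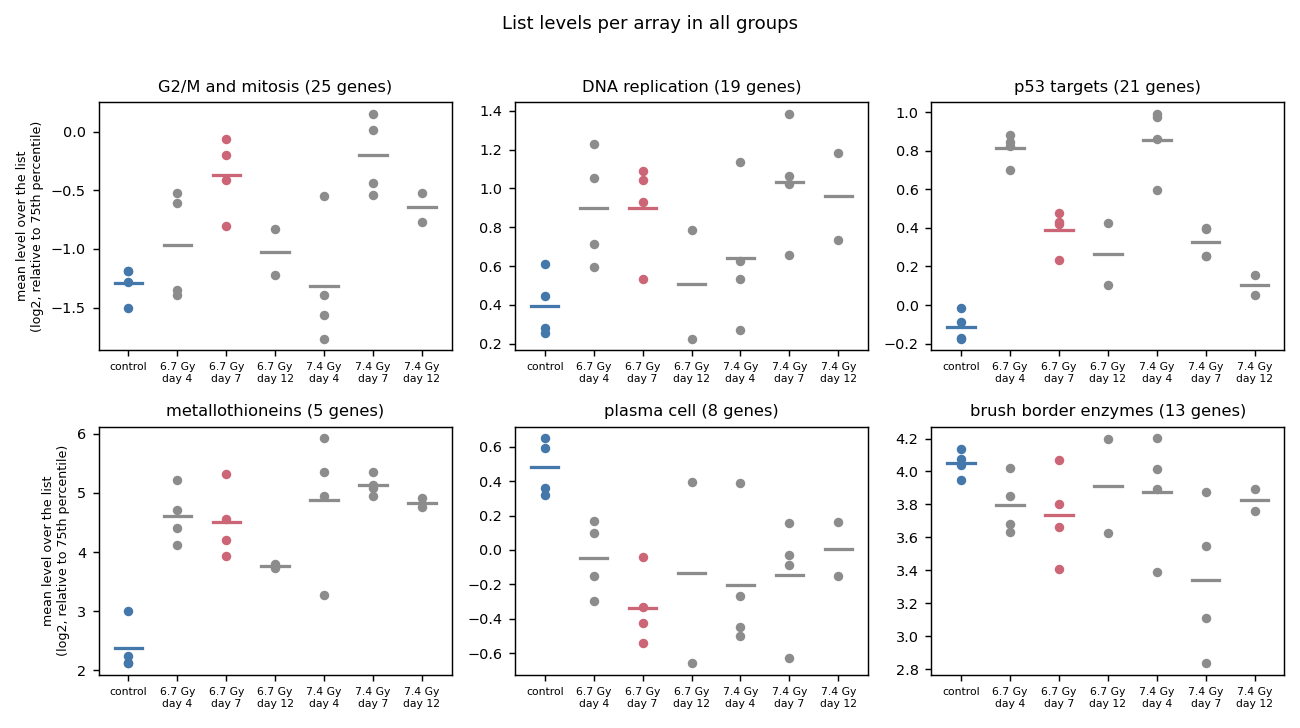
Mean level over the tested genes of 6 lists (y axis: log2 signal relative to the array's 75th percentile) in each array of the 7 groups, with control in blue, 6.7 Gy day 7 in red and other groups in grey; bars are group means. The 6.7 Gy day 7 arrays lie above all control arrays for the G2 and mitosis genes, the p53 targets and the metallothioneins, below them for the plasma cell markers, and overlap them for DNA replication and brush border genes.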

How the data were processed

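Total RNA from whole jejunum was labelled and hybridised to 1-colour Agilent rhesus arrays, 1 array per animal. The deposited scanner files hold intensity values from Agilent Feature Extraction (version 11.0.1.1, per the file headers), in which the processed signal is already background-corrected. The authors also deposited tables of raw intensity and of log2 values scaled to the 75th percentile in GeneSpring GX. Spots of a probe were averaged after dropping non-uniform outliers where another spot remained, log2 was taken, and each array's 75th percentile was subtracted. Control spots were left out, and no spot was saturated. Groups were taken from the sample labels. A probe was kept if all arrays of any of the 7 groups flagged it well above background, and the kept probes were tested with limma 3.58.1 in R 4.3.3, with Benjamini-Hochberg adjustment over all 28171. The main comparison used the 8 arrays without a block. The comparisons with day 4 and with 7.4 Gy were contrasts in a model of all 24 arrays. In both, replicates 1 and 2 of the group set against 6.7 Gy day 7 were on slides scanned on a different day. Scan day as a block was an alternative for these comparisons. Each sample is a separate animal, and the number of arrays limits the precision.

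The authors' table named 23674 probes by symbol, and RefSeq accessions (assembly T2T-MMU8v2.0) named 121 more, while 19808 probes have none. A list value uses the brightest tested probe of each gene. The genes named are chiefly all called probes with a symbol, up to 4 genes per list with the smallest p, and a few genes that the study followed. Outside this rule, WEE1, BIRC5, RRM2, MDM2, XPC, GADD45A, LGR5, LCT and DPP4 were picked after their values were seen. A few other list members are named to complete a count or describe a list. The members and lists were chosen with earlier results of these data known, so no list count is independent evidence. Same-numbered control and day 7 arrays share a slide, and their deviations from the group means correlated at 0.16, 0.24, 0.095 and 0.15, against at most 0.024 for arrays of different slides. All 8 arrays were scanned on 1 day, so scan day could not be a block. Alternatives covered normexp background correction (offset 50, on median foreground and background signals), scaling, filters, slide blocks, the samples in the fit, the test and leaving out each array. A common floor, leaving out slide 4, and the slide block on 24 arrays were added after seeing the data. Some items are not reported here.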

Additional observations from a re-analysis of the deposited data

Results flagged for a closer look

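Of 182 sets of 4 arrays tested (91 probes in control and on day 7), 11 held an array far from the other 3, which is 6.04%, and chance alone gives about 1 in 20. In control, replicate 3 was highest for MT1X (3.67, next 2.83) and for the called MT1E probe (3.86, next 2.77) and lowest for MSN (-1.87), replicate 4 was lowest for SLC1A1 (-1.63, next 0.08), replicate 2 was lowest for HMOX1 (3.95) and replicate 1 was highest for CSF1R (1.29). On day 7, replicate 4, from the slide with the raised background, was highest for LCN2 (4.23) and CCL8 (-1.62, next -2.18) and lowest for LOC701270 (-1.48) and TREH (2.62, next 3.43). Day 7 replicate 2 was lowest for EDA2R (-1.59, next -0.38).

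Differences between the 2 time points after 6.7 Gy, day 7 minus day 4, passed the test for 11 of the 91 probes of named genes. Of all probes tested, 1.55% passed. The genes were chosen with earlier results of these data known and the same day 7 arrays are used, so this count is not independent evidence. CCR7 was dim, above background on 3 of 4 arrays on both days. Higher on day 7 were NQO1 (1.81), SULT1B1 (1.57), CPS1 (1.31) and GCG (1.24). Lower on day 7 were GDF15 (-2.18), LCN15 (-2.02), CCR7 (-1.92), EDA2R (-1.44), DDB2 (-1.39), GPX2 (-1.25) and CD27 (-1.05). Adjusted p ranged from 0.00148 for CPS1 and DDB2 to 0.0496 for CD27.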

How the results depend on the processing

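The number of probes called between day 7 and control, 18 in all, varied between settings, and 81 probes had an adjusted p under 0.1 with a 2-fold difference. It was 45 with normexp correction, 42 with a filter on the compared groups only, 46 over probes well above background on all 8 arrays, 48 in the model of 24 arrays, 53 with a trended robust variance and 89 with slide as a random block. The replicate block (slide as a fixed term) gave 1 on 8 arrays and 51 on 24 arrays, of which 11 were among the 18. No filter gave 2, 1 probe per gene symbol gave 1, a common floor and leaving out slide 4 gave 3 each, and the methods' t-test gave 0 after adjustment, with 354 at an unadjusted p under 0.05 and 2-fold. Without 1 array it was 2 to 8. Between day 7 and day 4, 436 probes became 276 with normexp, 249 with no filter, 928 with the replicate block and 658 with a random block. They became 585 with scan day as a block, 149 with the 2 groups alone, 24 with the methods' t-test and 169 to 740 without 1 array. The dose comparison gave 0 under every alternative run. The number of replication genes higher at an unadjusted p under 0.05 went from 12 to 5 without slide 4 and to between 6 and 15 without 1 array, and that of plasma cell genes lower was 3 to 5. The block changed no count of the 6 lists tried by over 1.5 times. The sign of the CXCL8 difference turned to -0.64 without slide 4, -0.01 without control replicate 1, -0.17 without control replicate 4, -0.10 without day 7 replicate 3 and -0.42 without day 7 replicate 4. Without day 7 replicate 1 it was 0.71. None of the other named genes run under these alternatives changed sign. Signals on slide 4 limit what can be said of dim probes. The causes of these shifts were not tested.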
